A study of Mus musculus with 2 samples.

Results

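The regions described are the chromatin boundaries in the distal ends of the mouse autosomes, that is, the boundary intervals of 5 kb on chromosomes 1 to 19 whose midpoint lay within the last 10 Mb of the GRCm38 chromosome. There were 635 of them among 7607 boundaries on the autosomes and 8058 boundaries in the whole list, so the distal windows held 8.35% of the autosomal boundaries. The members were chosen by position alone, so their number, class, strength and surroundings were free to differ from those elsewhere. They were compared with 555 boundaries in the proximal windows, between 3 and 13 Mb from the chromosome start, and with 6417 boundaries in the chromosome middles, which lie between those windows.

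The boundaries came from in situ Hi-C, a count of contacts between DNA segments. Chromatin was fixed, cut with DpnII and religated inside the nucleus, so that neighbours in space became joined. The cells were mature olfactory sensory neurons, the cells that detect odorants, sorted by GFP fluorescence from the olfactory epithelium of adult OMP-GFP mice of strain 129P2/OlaHsd and mixed sex, with no treatment, where GFP follows the olfactory marker protein gene. There was 1 group of 2 biological replicates, of 3000000 and 1500000 cells, and the authors called boundaries on the contacts of both replicates pooled. No value below therefore has a spread between replicates, and the cell identity cannot be checked in a boundary list; the contact depth is unknown here.

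Boundaries are the borders between neighbouring contact domains, and contacts across them are fewer than contacts within a domain. In mammals many of them lie where the zinc finger protein CTCF stops the loop-extruding cohesin complex, and many lie at active promoters. Mouse autosomes have their centromere at the start of the reference sequence and the telomere of their long arm at its end, so the distal window is the telomere-near part of that arm. Such parts of mammalian chromosomes tend to be rich in genes and in GC.

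CTCF binding matches bring out the sequence side of these borders, so those nearest the strongest distal boundaries are shown. They were the exact matches to the core consensus of CTCF, searched on either strand, at 10 of the strongest distal boundaries that had a match within 20 kb. They are the top of that ranking except for 1 boundary of strength 2.18, whose sequence was not used here. Each is given 5′ to 3′ on the strand of the match, from the GRCm38.p6 reference, with the 14 bases of the core in capitals and 8 bases on each side.
Boundary over Ighv1-75, chr12:115837888-115837917, minus strand: gctcatgaCCAGCAGATGGCACaatgagga
Last boundary of chromosome 2, chr2:181921903-181921932, plus strand: aagtgaaaCCACTAGGTGGCAGaaagatac
Boundary at Fadd, chr7:144585821-144585850, plus strand: cagggttgCCAGCAGAGGGCGGcagccacc
Boundary in Xpnpep1, chr19:52975999-52976028, minus strand: gtgttttgCCAGCAGGTGGCAGtgtggttc
Boundary at Ttc34, chr4:154825945-154825974, minus strand: cagagttgCCAGCAGAGGGCAGccacactc
Boundary at Cryz, chr3:154572502-154572531, minus strand: tacatcggCCACCAGGTGGCAGagtagcac
Boundary 25 kb from Tmem121, chr12:113220045-113220074, plus strand: gcatctagCCACCAGGGGGCACatgagctc
Boundary at Itga5, chr15:103342596-103342625, minus strand: gagttttaCCACCAGAGGGCAGcatagcca
Boundary at Enpp7, chr11:118975612-118975641, minus strand: tgacatgtCCACCAGGTGGCGCtgtccagc
Boundary 45 kb from Setd4, chr16:93576899-93576928, minus strand: acattcgtCCACCAGGTGGCGCcagaggac
The 10 sequences held 9 distinct cores, and the core at Enpp7 was the same as that at the boundary near Setd4. Of the 10 matches, 5 pointed away from their boundary and 5 toward it, while 68.7% of all matches near distal boundaries pointed away. Their centres lay 1.49 to 19.9 kb from the boundary midpoint, so some were far from the border. A match describes letters of the reference, a C57BL/6J sequence, and not a measured binding site in these cells.

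The strongest distal boundary of each autosome had a strength between 1.96 on chromosome 11 and 4.32 on chromosome 12, with a median of 2.48. Strength is the authors' score for a boundary, without a stated scale, and is used here only to rank boundaries within the list. All 19 belonged to the Strong class, which from the values holds scores over 0.5. A coding transcription start site (TSS) lay within 20 kb of 11 of them and a match to the CTCF core that near to 3, and 1 had both and 6 neither. Of all distal Strong boundaries 54.4% had such a TSS and 39.0% such a match. Of all autosomal boundaries in callable bins 38.5% and 22.6% did. No difference from these shares was tested.

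The boundary of strength 4.32 (chromosome 12, 115830001 to 115835000) covered an exon and UTR of Ighv1-75, a variable segment of the immunoglobulin heavy chain locus, and was the strongest of the whole autosomal list. The next, of 3.22 (chromosome 5, 144765001 to 144770000), covered an exon and UTR of Trrap, a cofactor of histone acetyltransferases, and was the only one of the 19 in the same 5 kb bin as its coding TSS. That of 3.17 on chromosome 4 (147810001 to 147815000) lay 5 kb from the TSS of Zfp984, a zinc finger gene. These 3 stood at ranks 1, 7 and 9 among all autosomal boundaries.

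Boundaries of 2.5 to 3 lay near genes of varied function. That of 2.86 on chromosome 10 (122100001 to 122105000) lay 5 kb from Rxylt1, which encodes a xylosyltransferase of dystroglycan. The boundary of 2.73 on chromosome 2 (173570001 to 173575000) covered an exon and UTR of Ankrd60. Kcnh1, a voltage-gated potassium channel gene on chromosome 1, lay 20 kb from a boundary of 2.66 (192170001 to 192175000), and 1700018B08Rik on chromosome 8 lay 15 kb from one of 2.62 (121525001 to 121530000). Ebf3, which encodes a transcription factor of the Olf/Ebf family that acts in these neurons, lay 15 kb from a boundary of 2.61 on chromosome 7 (137325001 to 137330000). On chromosome 3 a boundary of 2.58 (158085001 to 158090000) lay in an intron of Lrrc7, which encodes a postsynaptic scaffold protein, with no coding TSS within 20 kb.

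The other 10 autosomes had maxima from 1.96 to 2.48. The boundaries at Zfp407 (2.48, chromosome 18), Topaz1 (2.16, chromosome 9), Olfr279 (2.13, chromosome 15) and Enpp7 (1.96, chromosome 11) had those TSSs within 20 kb. The boundaries of 2.38 on chromosome 19 and 2.06 on chromosome 6 lay in introns of Xpnpep1, an aminopeptidase gene, and of Far2, a fatty acyl-CoA reductase gene. Those on chromosomes 13, 14, 16 and 17 (2.24, 2.22, 2.34 and 2.22) were intergenic with no coding TSS within 20 kb.

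**Figure D1:**
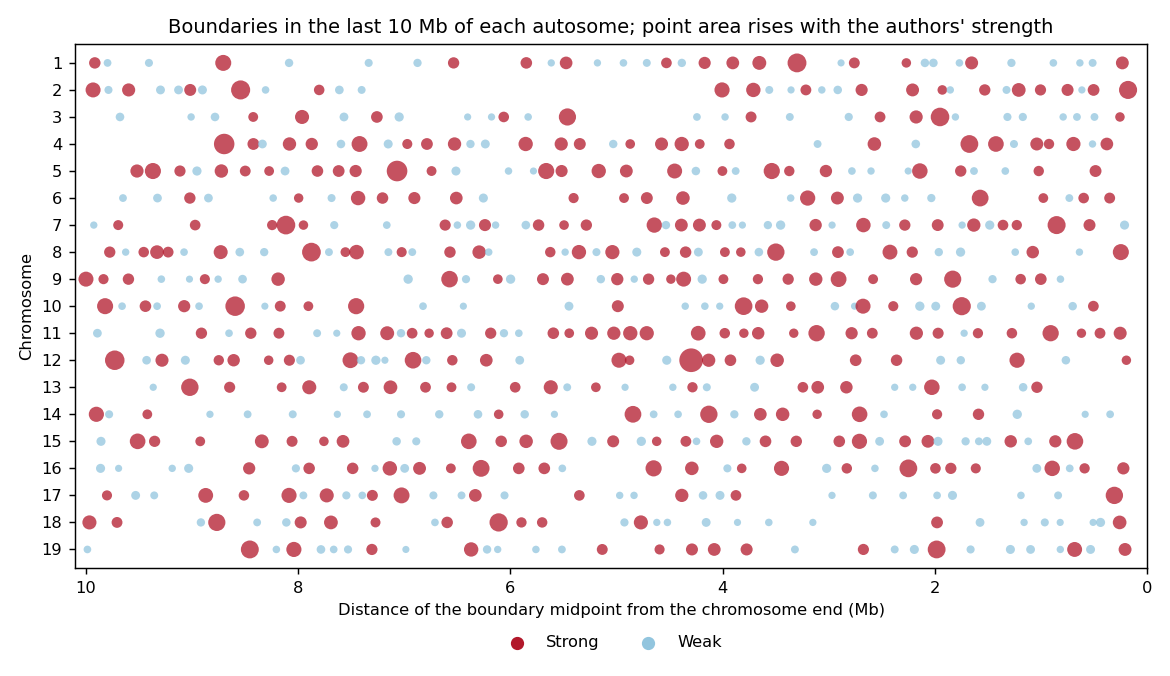
Position of all 635 distal boundaries, with the distance from the chromosome end in Mb on the horizontal axis and the chromosome on the vertical axis. Red points are Strong, blue points are Weak, and point area rises with the authors' strength; the 3 largest points, on chromosomes 12, 5 and 4, have strengths of 4.32, 3.22 and 3.17.

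Of the 635 distal boundaries, 351 were Strong and 284 Weak. The Strong share was 55.3% (95% exact Clopper-Pearson interval 51.3 to 59.2%, which covers the counting of boundaries only), against 51.9% of all autosomal boundaries, 49.5% in the proximal windows and 51.8% in the middles. The median strength was 0.566 in the distal windows (interquartile range 0.319 to 1.02), 0.495 in the proximal windows and 0.520 in the middles. The top 25% of autosomal strengths took in 180 distal boundaries (28.3%, against 25% by construction). Of the 100 strongest autosomal boundaries 13 were distal, 10 proximal and 77 in the middles, while 8.35% of all autosomal boundaries were distal. The interval of 5 kb touched a UTR of a coding or immunoglobulin gene in 162 cases, an exon outside UTRs in 73, an intron alone in 105 and no such gene in 295. The same counts were not made for other boundaries or for all bins, so they set the distal boundaries apart in nothing.

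Distal ends carried more boundaries per Mb than proximal ends. Density was counted per Mb of callable sequence, in 5 kb bins without undetermined bases, which came to 186 Mb in the distal windows, and every distal boundary lay in such a bin. It was 3.41 ± 0.430 per Mb in the distal windows (SD, n = 19 autosomes), 2.93 ± 0.604 in the proximal windows and 3.18 ± 0.198 in the middles. The distal minus proximal difference was 0.473 ± 0.699 per Mb and was above 0 on 16 of 19 autosomes (exact 2-sided sign-flip permutation test over autosomes, p = 0.00739, adjusted p = 0.0258 by Benjamini-Hochberg over the 14 differences tested). The distal minus middle difference was 0.229 ± 0.420 per Mb, above 0 on 12 of 19, and did not pass (p = 0.0266, adjusted p = 0.0552 by the same exact test). It passed in the last 5 Mb (0.402 per Mb, adjusted p = 0.00643), for the top 25% of strengths (0.178 per Mb, adjusted p = 0.0442) and when chromosome 3, 6, 17 or 18 was left out (0.252 to 0.261 per Mb), by the exact test. Where the distal window had another length, here and below, the proximal window had that length too and the middles took the rest. The proximal window still began 3 Mb from the chromosome start, so such results do not change the distal window alone.

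Single autosomes show where that difference lay. Chromosome 8 had the densest distal window, with 43 boundaries (4.34 per Mb), followed by chromosome 11 with 41 (4.14) and chromosome 7 with 40 (4.08). Chromosome 3 had the sparsest, with 28 (2.83), then chromosome 14 with 29 (2.93) and chromosome 6 with 29 (2.96). The distal window was the sparser of the pair on chromosomes 3, 18 and 19, and on chromosome 19 it held 31 boundaries against 42 in the proximal window. The proximal windows of chromosomes 14 (15 boundaries, 1.50 per Mb) and 7 (1.94 per Mb) were the sparsest of all, and without these 2 chromosomes, a choice made after seeing the data, the difference fell to 0.319 per Mb and did not pass (adjusted p = 0.0588 by the exact test).

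Strong boundaries followed the same order, with 1.88 ± 0.585 per Mb in the distal windows (SD, n = 19), 1.45 ± 0.490 in the proximal windows and 1.65 ± 0.199 in the middles. The distal minus proximal difference of 0.433 ± 0.692 was above 0 on 14 of 19 autosomes and passed narrowly (exact p = 0.0156, adjusted p = 0.0436). That call was lost when any 1 of 14 autosomes was left out (all but chromosomes 3, 10, 17, 18 and 19), with exact adjusted p up to 0.0606, and without chromosomes 7 and 14 together (0.376 per Mb, adjusted p = 0.0856). It was also lost in the last 5 Mb (0.509 per Mb) and with all bins as the denominator (0.400 per Mb), both at an adjusted p of 0.0552 by the exact test. The distal minus middle difference of 0.231 ± 0.554 did not pass (exact p = 0.0865, adjusted p = 0.135). The share of Strong boundaries differed by 5.79 ± 13.9 percentage points from the proximal windows and by 2.44 ± 11.1 points from the middles, and neither passed (exact p = 0.0868 and 0.342, adjusted p = 0.135 and 0.369). Distal Strong shares ran from 35.7% on chromosome 3 to 75.6% on chromosome 11.

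**Figure D2:**
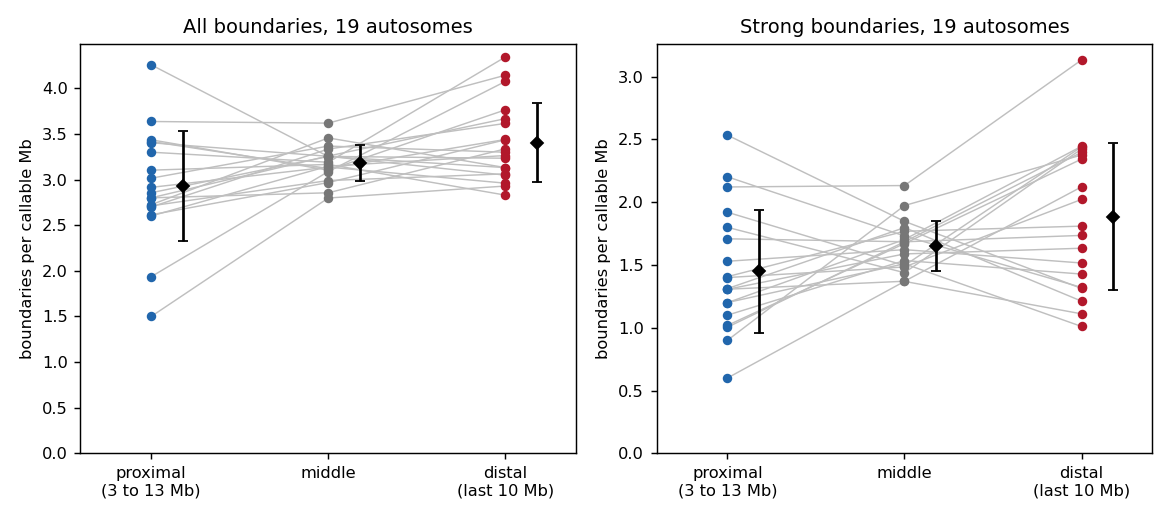
Boundaries per callable Mb in the proximal window, the middle and the distal window of each autosome, for all boundaries (left) and Strong boundaries (right). Each point is 1 autosome, grey lines join the values of the same autosome, and black diamonds with bars give the mean ± SD over 19 autosomes; the mean of all boundaries goes from 2.93 in the proximal windows to 3.41 in the distal ones.

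The median spacing of neighbouring boundaries was 245 kb in the distal windows (interquartile range 165 to 345 kb, 614 spacings), against 265 kb in the proximal windows and 260 kb in the middles. Adjacent Strong boundaries lay a median of 375 kb apart, against 417.5 and 395 kb. The widest distal spacing was 1530 kb, and the widest elsewhere were 3300 kb (proximal) and 3920 kb (middle). Spacings with over 50 kb of undetermined bases were left out.

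The distal ends also held more genes. They had 2010 coding TSSs, or 10.8 ± 6.19 per Mb (SD, n = 19 autosomes), against 7.89 ± 7.33 in the proximal windows and 8.56 ± 2.52 in the middles. The range was wide, from 2.64 per Mb on chromosome 18 and 3.54 on chromosome 17 to 20.5 on chromosome 15 and 21.1 on chromosome 11. Starts of lincRNA genes numbered 2.93 ± 1.04 per Mb in the distal windows, 1.93 ± 1.14 in the proximal windows and 2.17 ± 0.603 in the middles. GC content was 44.2 ± 2.77% against 41.5 ± 1.82% and 41.8 ± 0.833%, and CpG dinucleotides numbered 10.5, 7.80 and 8.44 per kb. The soft-masked repeat share was 29.8 ± 3.84% in the distal windows, 38.2 ± 6.71% in the proximal windows and 33.2 ± 1.45% in the middles. DpnII sites (GATC), where the library was cut, numbered 2.45, 2.57 and 2.49 per kb. The part of the repeat share and of the cut sites in the differences between regions was not tested.

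Autosomes with a gene-rich distal end had more boundaries there. Across the 19 distal windows, boundary density and coding TSS density had a Pearson's r of 0.709 and a Spearman's rho of 0.770, and r was 0.622 without chromosomes 11 and 15, the 2 farthest from the median gene density. Strong boundaries gave r of 0.780. In the middles r was 0.652, and in the proximal windows 0.218, or -0.306 without chromosomes 19 and 7. These values describe 19 windows that come from 1 map and share its depth and differ in base composition.

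**Figure D3:**
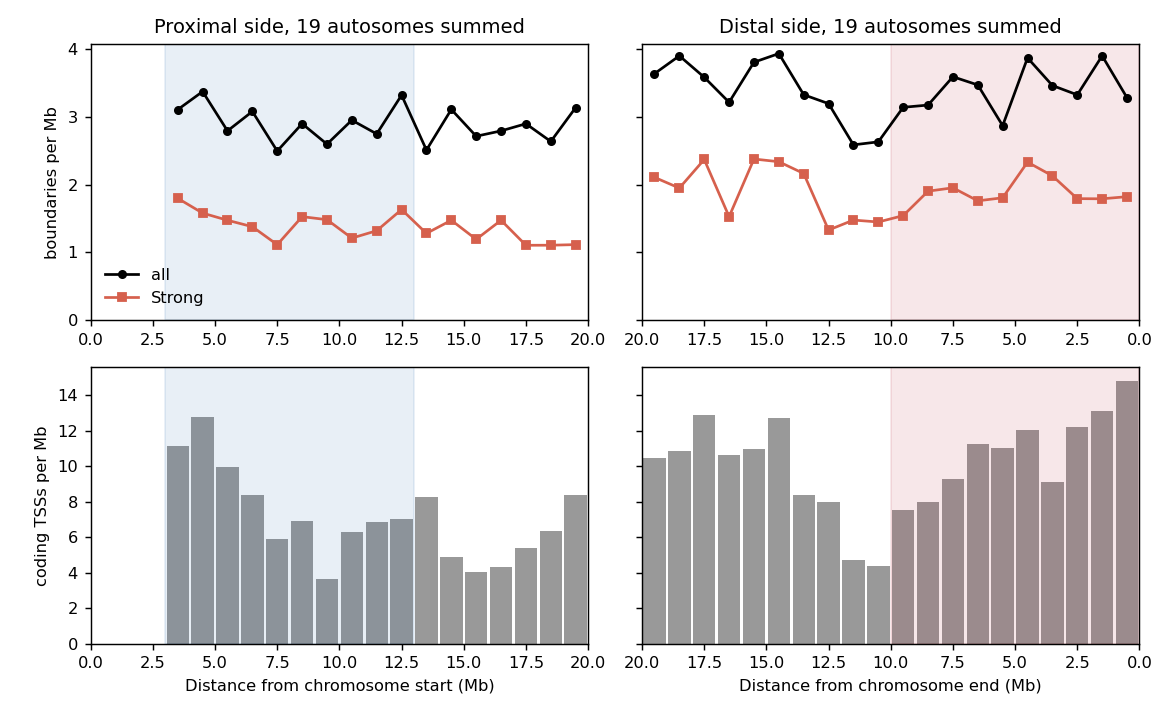
Boundaries per Mb (top; black circles all, red squares Strong) and coding TSSs per Mb (bottom) in steps of 1 Mb from the chromosome start (left) and from the chromosome end (right), summed over 19 autosomes; shading marks the proximal and distal windows. Gene density reaches 14.8 per Mb in the last Mb, and both curves are low between 10 and 12 Mb from the end.

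In steps of 1 Mb from the end, boundary density showed no steady slope. The last Mb held 54 boundaries in 16.5 Mb (3.28 per Mb), of which 30 were Strong, and 18 of 19 autosomes had at least 1 there. Within the distal window, density was highest 1 to 2 Mb from the end, with 74 boundaries (3.89 per Mb), and lowest 5 to 6 Mb from it, with 54 (2.87 per Mb). Just inside the limit, 9 to 10 Mb from the end, it was 3.14 per Mb, and just outside, 10 to 11 Mb from the end, 2.63 per Mb. Coding TSSs fell over the same limit from 7.55 to 4.40 per Mb. Beyond this dip, from 14 to 20 Mb from the end, the steps held 3.21 to 3.93 boundaries per Mb, with 10.5 to 12.9 coding TSSs per Mb. All of them but the step from 16 to 17 Mb (3.21) were above the 3.41 per Mb of the distal windows. Densities above that of the distal windows were thus also found further inside.

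Boundaries came close to the chromosome ends. The last boundary of each autosome lay between 77.5 and 937.5 kb before the last callable bin, with a median of 157.5 kb, and within 500 kb of it on 16 of 19 autosomes. The median spacing of distal boundaries was 245 kb, and what spacing alone would give at the end was not worked out. The reference closes each autosome with 100 to 158 kb of bins that were not callable, and the effect of this edge on the calls and strengths was not tested. Of these last boundaries 16 were Strong, 9 lay within 20 kb of a coding TSS and 4 within that distance of a core match. Among all distal boundaries the shares were 55.3%, 45.4% and 30.7%, and no difference from them was tested. The nearest was on chromosome 2 (181930001 to 181935000, strength 2.43), followed by those on chromosome 12 (119930001 to 119935000, 0.510), 15 kb from Tmem196, and chromosome 19 (61220001 to 61225000, 1.13), 5 kb from Csf2ra, which encodes a subunit of the GM-CSF receptor. The repeat of telomeres, searched as 3 tandem copies of TTAGGG on both strands with overlapping matches counted, occurred in 93 distal bins (0.499 bins per callable Mb), against 0.122 and 0.126 per Mb in the proximal windows and middles. A match lay within 20 kb of 11 distal boundaries (1.73%), and of 1.96% of all callable distal bins.

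With gene density taken into account, the distal ends did not differ detectably from the middles. Each 5 kb bin was placed in 1 of 7 strata by the coding TSSs per Mb in the 1 Mb around it, and the boundary rates of the middles in each stratum gave the number expected. The distal windows were expected to hold 621 boundaries and held 635, a ratio of 1.02. The surplus was 0.0731 ± 0.319 per Mb (SD, n = 19) and was above 0 on 10 of 19 autosomes (exact sign-flip p = 0.332, adjusted p = 0.369). The proximal windows were expected to hold 591 and held 554, a ratio of 0.938. The distal minus proximal difference in surplus was 0.269 ± 0.792 per Mb, above 0 on 12 of 19 (exact p = 0.174, adjusted p = 0.222), and 0.0416 without chromosomes 7 and 14. In the last 20 Mb it was 0.322 per Mb and passed (exact adjusted p = 0.0429), and with strata of GC content it turned to -0.0353 (exact adjusted p = 0.833).

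Chromosome 8 had the largest distal surplus, 43 boundaries against 35.5 expected, and chromosome 2 the largest shortfall, 31 against 35.8. Chromosome 11, with the most genes per Mb, had 41 against 37.3. Chromosome 18, with the fewest, had 30 against 26.3. The surplus depended on the setting. In the last 5 Mb it was 0.202 per Mb and passed (adjusted p = 0.0470 by the exact test). With strata of GC content in place of gene density it turned to -0.203 per Mb (above 0 on 4 of 19 autosomes, exact sign-flip p = 0.000889, adjusted p = 0.00622). The distal ends thus held fewer boundaries than the middles in the same broad strata, within which GC content was not made equal. With strata of both gene density and GC content the surplus was -0.0787 (exact adjusted p = 0.362).

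**Figure D4:**
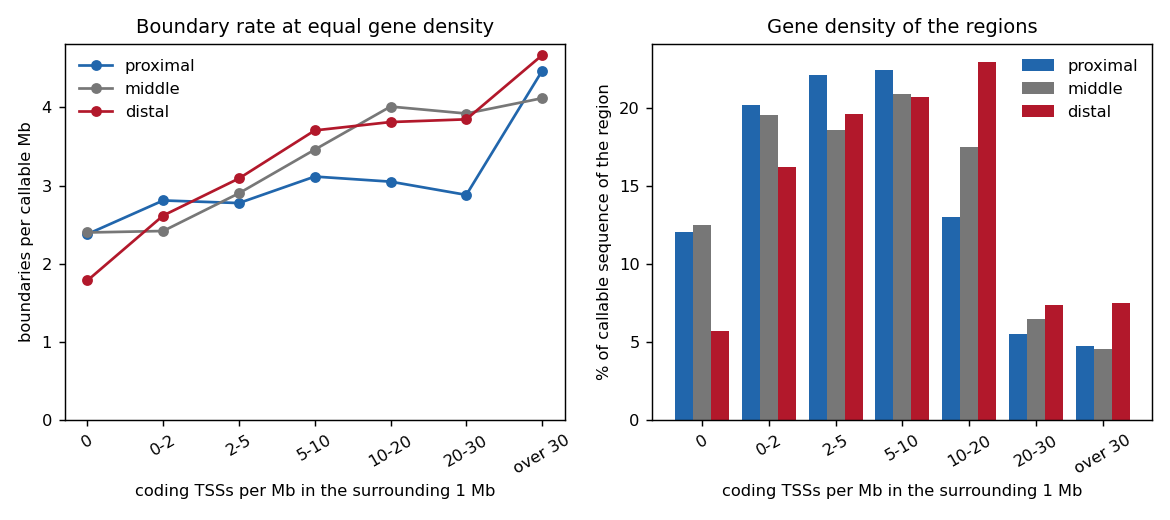
Left, boundaries per callable Mb in each stratum of coding gene density (coding TSSs per Mb in the surrounding 1 Mb) for the proximal (blue), middle (grey) and distal (red) regions, summed over 19 autosomes; right, the percentage of each region's callable sequence in each stratum. The distal rate goes from 1.78 per Mb in sequence without genes to 4.67 in the densest stratum, and more of the distal sequence lies in the gene-dense strata.

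Within the distal windows, boundary rates were higher in sequence with more genes. Sequence without a coding TSS in the surrounding 1 Mb held 1.78 boundaries per Mb (19 in 10.6 Mb), sequence with 2 to 5 TSSs per Mb held 3.09, and sequence with over 30 held 4.67 (65 in 13.9 Mb). The middles had 2.40, 2.90 and 4.12 in the same strata. Between 10 and 20 TSSs per Mb the distal rate was 3.81 and that of the middles 4.01, while the proximal windows had 3.05. Of the distal sequence 5.71% was in the stratum without TSSs and 7.47% in that over 30, against 12.5% and 4.56% of the middles. These rates by stratum were not tested singly.

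Counted by gene, a boundary lay within 20 kb of the TSS of 464 of the 2010 distal coding genes (23.1%), against 21.5% of all autosomal coding genes, 17.8% in the proximal windows and 21.7% in the middles. As a mean over autosomes, the distal share was 4.76 ± 7.23 percentage points above the proximal share (above 0 on 14 of 19, exact p = 0.00579, adjusted p = 0.0258) and 0.413 ± 5.48 points above that of the middles (exact p = 0.747, adjusted p = 0.747). The first call was lost in the last 5 Mb (2.17 points, adjusted p = 0.393), within 50 kb (6.31 points, adjusted p = 0.0748), for the top 25% of strengths (2.20 points, adjusted p = 0.0552) and without chromosomes 7 and 14 (3.86 points, adjusted p = 0.0552), by the same exact test. For each coding gene there were 0.316 boundaries in the distal windows, 0.373 in the proximal windows and 0.370 in the middles.

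Of the 635 distal boundaries, 288 (45.4%) had the start of a coding gene within 20 kb, against 38.5% of all autosomal boundaries in callable bins. All callable distal bins had a TSS that near in 31.7%, a ratio of 1.43, and the ratio was 1.32 in the proximal windows and 1.46 in the middles. As a mean over autosomes the distal share of boundaries was 12.1 ± 21.7 percentage points above the proximal one and 5.62 ± 16.4 above that of the middles, and neither passed (exact p = 0.0276 and 0.153, adjusted p = 0.0552 and 0.214). Set against the bins of each region, a measure chosen after seeing the data, the differences were 4.70 and -0.00326 points (exact adjusted p = 0.0684 and 0.999 over the 4 such differences). Among distal Strong boundaries 191 of 351 (54.4%) had a TSS within 20 kb and among Weak ones 97 of 284 (34.2%). The share was lowest on chromosome 18 (10.0%) and highest on chromosome 4 (75.8%).

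A larger share of distal boundaries than of boundaries elsewhere lay near a CTCF core match, and the same was true of bins in general. Of all callable bins 15.9% of the distal ones had a match within 20 kb, against 8.28% of proximal and 10.1% of middle bins. The tests of shares in this paragraph do not set that background aside. A match lay within 20 kb of 195 of the 635 (30.7%), against 22.6% of all autosomal boundaries, 18.1% in the proximal windows and 22.2% in the middles. As a mean over autosomes the share was 12.1 ± 10.6 percentage points above that of the proximal windows (above 0 on 17 of 19, exact p = 0.000122, adjusted p = 0.00171) and 7.82 ± 8.78 points above that of the middles (15 of 19, exact p = 0.00138, adjusted p = 0.00964). In the last 5 Mb the differences were 9.55 and 7.42 points and did not pass (adjusted p = 0.0607 and 0.0552 by the exact test). The proximal windows and the middles changed along with that window. In the top 25% of strengths the difference from the middles was 7.08 points and did not pass (exact adjusted p = 0.114).

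The matches themselves were frequent in the distal ends. There were 797 distal matches, 12.6% of the 6323 on autosomes, in 7.79% of the callable sequence, which gave 4.27 ± 1.94 per Mb against 2.03 ± 1.05 in the proximal windows and 2.55 ± 0.538 in the middles. GC content was also higher there (44.2%, against 41.5% and 41.8%), and its part in the number of matches was not tested. Of all callable distal bins 15.9% had a match within 20 kb, against 8.28% of the proximal and 10.1% of the middle bins. Boundaries thus exceeded the bins of their region 1.93 times in the distal windows, 2.18 times in the proximal windows and 2.20 times in the middles. The share of boundaries was above that of bins on 19 of 19 autosomes in the distal windows. As a difference, chosen after seeing the data, boundaries exceeded bins by 14.2 points in the distal windows, 9.72 in the proximal windows and 12.1 in the middles. The distal excess was 4.46 ± 6.39 points above the proximal one (15 of 19, exact p = 0.00705, adjusted p = 0.0282 over the 4 such differences) and 2.03 ± 5.96 above that of the middles (exact p = 0.152, adjusted p = 0.203). With 1 mismatch allowed in the core these were 1.48 and -2.72 points (exact adjusted p = 0.715 and 0.0592). The first call was also lost in the last 5 Mb (2.50 points), for Strong boundaries (5.83), for the top 25% of strengths (5.70) and within 50 kb (3.70), with adjusted p from 0.102 to 0.690 by the exact test. When any 1 of chromosomes 4, 6, 13, 15 and 19 was left out, it was lost with adjusted p up to 0.0564.

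**Figure D5:**
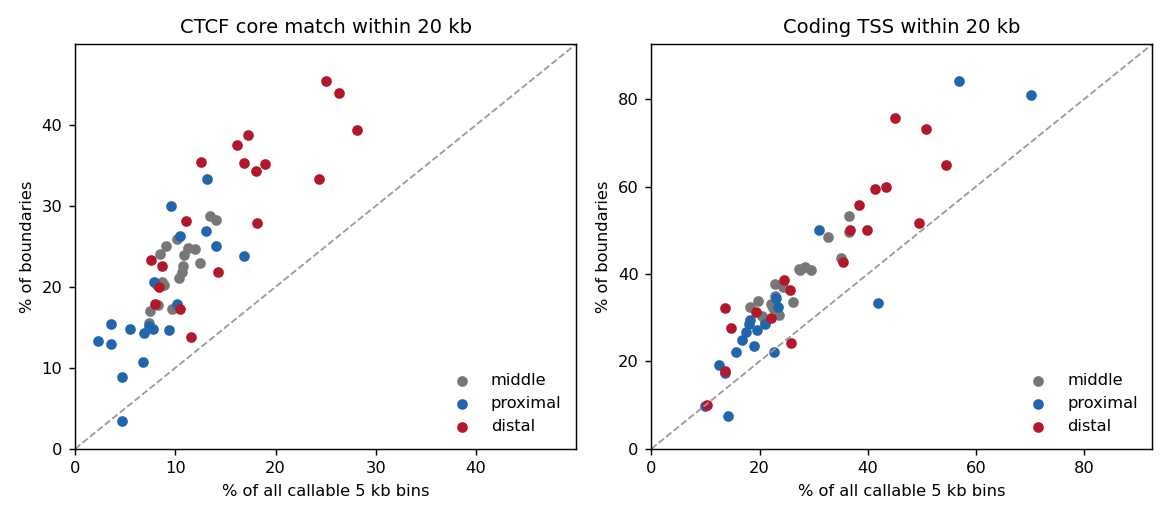
Percentage of boundaries with a CTCF core match (left) or a coding TSS (right) within 20 kb against the percentage of all callable 5 kb bins of the same region. Each point is 1 region of 1 autosome (red distal, blue proximal, grey middle), and the dashed line marks equal shares; all 19 distal points lie above the line for CTCF and 17 for TSSs.

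Both features together were near 107 distal boundaries (16.9%), against 7.22% of proximal and 10.9% of middle boundaries. A TSS alone was near 28.5%, a CTCF match alone near 13.9%, and neither was near 40.8%, against 57.0% of proximal and 50.3% of middle boundaries. Among Strong boundaries 39.0% of the distal ones had a CTCF match (137 of 351), against 24.5% and 30.3%. Of the CTCF matches whose nearest boundary was distal and within 20 kb, 182 pointed away from it and 83 toward it (68.7% away), against 66.4% in the proximal windows and 67.2% in the middles. These shares were not tested singly, and those with both features or neither were not worked out for all bins. More callable distal bins had a TSS within 20 kb (31.7%, against 24.4% of proximal and 26.2% of middle bins). The same held for a CTCF match (15.9%, against 8.28% and 10.1%), and the shares in this paragraph do not set that background aside.

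GC content in the 25 kb around distal boundaries was 45.1%, and 0.896 ± 0.464 percentage points above that of the window as a whole, on 19 of 19 autosomes. The same difference was 0.709 points in the proximal windows and 1.03 in the middles. The repeat share around distal boundaries was 30.7%, or 0.832 ± 2.91 points above the window, on 13 of 19 autosomes. CpG dinucleotides numbered 11.9 per kb around distal boundaries and 10.5 in the windows.

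Genes of known roles fell into the distal windows by their position. Of 33 autosomal genes listed for olfactory neuron function 3 were distal, and 2 of these had a boundary within 20 kb, beside 9 of the 33. Ebf3 had the boundary of 2.61 described above. Emx2, a homeobox gene that acts in olfactory receptor expression, lay 10 kb from a Strong boundary of 2.35 on chromosome 19. Gnb1, a G protein beta subunit gene on chromosome 4, had no boundary within 20 kb, and the nearest, of 1.15, was 25 kb away. Among homeobox regulators 3 of 5 distal members had a boundary, beside 7 of 25 on all autosomes. They were Emx2 and, near Weak boundaries, Nkx6-2 (0.395) and Six3 (0.298), while Vax1 and Prox1 had none. Counts this small cannot be set against the 21.5% of all coding genes.

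Of 51 autosomal imprinted genes 16 were distal, 13 of them on chromosome 7, and 4 of the 16 (25%) had a boundary within 20 kb, close to the 23.5% of all autosomal imprinted genes and the 21.5% of all coding genes. Cdkn1c, an inhibitor of cyclin-dependent kinases, and its neighbour Slc22a18 lay 5 kb from the same Strong boundary of 0.927. Nespas, an antisense RNA of the Gnas locus on chromosome 2, lay 15 kb from one of 0.687, and Ascl2, a transcription factor gene, 15 kb from a Weak one of 0.301. Of the members without one, 2 were picked after their values were seen. Igf2, the growth factor gene, had the boundary nearest its TSS 100 kb away (strength 1.48), and Kcnq1, a potassium channel gene, held a boundary of 0.823 in an intron, 50 kb from its TSS.

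Ribosomal protein genes had a boundary at 5 of 11 distal members, led by Rpl38 (1.45, chromosome 11), Rpl13 (1.26, chromosome 8) and Rpsa (0.507, chromosome 9), beside 41 of the 80 autosomal members. Among the Fgf ligands, 2 of 5 had one (6 of 20 on all autosomes), Fgf15 (0.951, in the same bin) and Fgf10 (Weak, 0.263). Cdh4 (0.980) and Cdh15 (0.845), cell adhesion genes, had one and Cdh26 did not, beside 5 of 33 listed cadherins and protocadherins on all autosomes. Housekeeping genes had one at 0 of 4 distal members, Atp5b, Hnrnpa1, Actb and Eno1, beside 7 of 27 on all autosomes. Vomeronasal receptor genes had one at 0 of 6, beside 28 of 329. With so few distal members these counts set no list apart.

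Large gene families made up much of some distal windows. Olfactory receptor genes, pseudogenes included, numbered 105 in the distal windows, 67 of them on chromosome 10 and 25 on chromosome 7, and 13 (12.4%) had a boundary within 20 kb, against 11.9% of the 1399 on autosomes. The strongest were at Olfr279 (2.13) and Olfr288 (1.26) on chromosome 15 and at Olfr522 (0.826) on chromosome 7. Zinc finger genes had one at 6 of 45 distal members (13.3%), beside 14.7% of the 402 autosomal ones, with Zfp984 (3.17), Zfp407 (2.48) and Zfp385a (2.01) the strongest. The immunoglobulin heavy chain locus on chromosome 12 lay in the distal window with 217 of its listed segments. Of these segments 30 (13.8%, beside 21.5% of all autosomal coding genes) shared 9 boundaries within 20 kb. After that at Ighv1-75, the strongest of these were at Ighv1-52 (1.62) and Ighv1-85 (1.21). The part of sequence differences of these 129P2/OlaHsd mice from the C57BL/6J reference in the strengths at this locus was not tested.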

How the data were processed

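The deposited boundary list gives 5 kb intervals on GRCm38 with a class and a strength score, both made by the authors from the contact matrix of the pooled replicates, per the labels and the series text. For the caller, its version and its window, the sources used here give no name or value. In the deposited values, Weak boundaries score under 0.5 and Strong ones over it. Boundaries were laid on 5 kb bins of GRCm38.p6 with genes of GENCODE mouse release 21. Coding TSSs were those of genes typed as protein-coding, so immunoglobulin segments entered neither the TSS shares nor the gene density. Bins with undetermined bases were not callable, and within 20 kb means bins at most 20 kb apart.

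Each of the 14 main differences was tested over 19 autosomes with an exact 2-sided sign-flip test (524288 flips, smallest p 3.8e-06) and Benjamini-Hochberg adjustment, in Python 3.11.15 with NumPy 2.4.6, pandas 2.3.3, SciPy 1.17.1 and Matplotlib 3.10.9. For an alternative, its p replaced that result's p among the 14. Autosomes of 1 map are not biological replicates, so p-values measure the spread between chromosomes, not between mice. The members, gene lists and tests were chosen with earlier results of these data known. Named were the strongest distal boundary of each autosome with a coding gene within 20 kb or the gene it overlaps, the 3 last boundaries nearest the ends, and up to 3 members of each of 11 gene lists, with exceptions said where they occur. Sequences on chromosome 18 were not used. The scripts were tested on simulated data. In 40 null runs, boundaries were placed at random over callable bins at 1 rate, with no planted distal difference. In these runs 14.3% of the 14 tests fell under 0.05 before adjustment. The distal minus middle difference in boundary density and the distal surplus beyond gene density were each called in 0% of them. The calls were not recorded test by test. Shares near a CTCF match follow the bins in such runs, and more distal bins have a match (15.9%, against 8.28% and 10.1%). A result under 0.05 among the 14, such as in these shares, can thus arise without a planted difference. Alternatives covered the window, boundary set, distance, denominator, strata and single autosomes. Those of the window gave the distal and proximal windows the same new length, and the middles took the rest.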

Additional observations from a re-analysis of the deposited data

How the results depend on the processing

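Of 122 alternatives, apart from leaving out single autosomes, 88 kept direction and side of the threshold, 16 lost the threshold, 11 gained it and 7 changed sign. With 1 autosome left out, 43 of 342 values changed. Adjusted p-values are from the exact sign-flip test. Alternatives of window length changed the distal and proximal windows alike, and the middles with them.

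Differences in boundaries per Mb from the middles passed in the last 5 Mb (0.402) and for the top 25% of strengths (0.178). The surplus beyond gene density passed in the last 5 Mb (0.202) and turned to -0.203 with GC strata and -0.0787 with gene and GC strata. Its difference from the proximal windows passed in the last 20 Mb (0.322) and turned to -0.0353 with GC strata. The difference in Strong boundaries per Mb from the proximal windows was lost in the last 5 Mb (0.509) and with all bins as denominator (0.400). That in the Strong share passed in the last 20 Mb (7.54 points).

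Shares near a TSS exceeded the proximal ones past the threshold for the top 25% of strengths (16.6) and for Strong boundaries (13.1). CTCF shares lost the threshold in the last 5 Mb (9.55 and 7.42 points) and, against the middles, for the top 25% (7.08). The share of genes near a boundary lost it against the proximal windows in the last 5 Mb (2.17), for the top 25% (2.20) and within 50 kb (6.31), and turned to -1.48 against the middles in the last 5 Mb. Set against bins, the TSS difference turned to -2.56 in the last 5 Mb (proximal) and to 0.657 within 10 kb (middles). The CTCF difference from the proximal windows lost the threshold in the last 5 Mb (2.50), for the top 25% (5.70), for Strong boundaries (5.83), within 50 kb (3.70) and with 1 mismatch (1.48). That from the middles passed in the last 20 Mb (4.36) and within 10 kb (4.93) and turned to -2.72 with 1 mismatch.

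Without chromosomes 7 and 14, chosen after seeing the data, differences from the proximal windows lost the threshold for boundaries per Mb (0.319), Strong boundaries per Mb (0.376) and genes near a boundary (3.86), and gained it for TSS shares (15.2, and 4.63 set against bins). The causes were not tested.

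Leaving out 1 autosome changed 8 results. Boundaries per Mb against the middles ran from 0.178 to 0.261 and passed without chromosome 3, 6, 17 or 18 only. Strong boundaries per Mb against the proximal windows ran from 0.375 to 0.525. The Strong share against the proximal windows ran from 4.32 to 7.30 and passed without chromosome 18. TSS shares against the proximal windows ran from 10.2 to 15.1 and passed without chromosome 7, 18 or 19. The share of genes against the middles ran from -0.270 to 0.782. Set against bins, TSS differences ran from 3.77 to 5.56 (proximal, past the threshold without chromosome 2, 6, 7 or 18) and from -0.936 to 0.511 (middles), and CTCF differences from 3.80 to 5.19 (proximal).

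No comparison between replicates was possible because both replicates of the 1 group were pooled before boundaries were called. The differences between regions were paired by autosome only. Contact depth, which limits what can be called, is unknown here, and boundaries were placed to 5 kb.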
